A study of Mus musculus with 12 samples.

Results

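The wild-type vehicle group of this study describes what bone marrow-derived macrophages express when nothing but the growth factor M-CSF and a vehicle has been added. It consists of 3 of the 12 libraries of the series, labelled as replicates 1 to 3, chosen by their labels and described on their own. The cells came from marrow of wild-type mice, were grown for 7 days with M-CSF (20 ng/µL as the labels write it) in α-MEM with fetal serum, and received vehicle for 12 h. The labels used here give no strain, sex or age, do not say what the vehicle was, and do not say whether the 3 replicates came from separate animals or cultures, so the spreads below are between these libraries and may be technical. The other 9 libraries (wild-type cells with 4-OI, which is 4-octyl itaconate, or with hemin, and Irg1 knockout cells with vehicle) do not enter any value below.

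M-CSF acts through the receptor tyrosine kinase CSF1R, which marrow progenitors and monocytes need to survive, divide and become macrophages. The transcription factor PU.1, encoded by Spi1, opens many of the genes that distinguish macrophages from other blood cells. Macrophages are professional phagocytes: they are known for dense lysosomes, for surface receptors that bind microbes, opsonised particles and dying cells, and for a secretory programme that is held low until danger signals arrive.

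Levels are FPKM, read or fragment counts scaled to transcript length and library total, as the authors deposited them. Because they are divided by transcript length, levels of different genes can be set side by side. A gene is counted as expressed at a mean of 1 FPKM or more over the 3 libraries, and values are mean ± SD with n = 3 unless each library is given. The libraries held 15987792, 22390882 and 10983784 expected counts in replicates 1, 2 and 3. Together they list 14980 genes, of which 13195 are in all 3. The smallest value in any library is 0.01 FPKM, so a gene below that has no row, and a gene missing from 1 library was taken as 0 there. No test was made, since a single group is described.

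A gene with no row in these files cannot be read as a gene that the cells lack. Families were picked by the start of the RefSeq symbol, so each count can include genes that are not subunits. Kinase genes whose symbols start like those of the small ribosomal subunit are an example. Of symbols that start like cytosolic ribosomal proteins, 53 of 56 for the large subunit and 44 of 45 for the small subunit had a row. So did 49 of 51 that start like proteasome subunits. Among nuclear genes for mitochondrial proteins, picked in the same way, the share was lower. A row was present for 31 of 78 mitochondrial ribosomal proteins and 14 of 27 cytochrome c oxidase genes. It was present for 6 of 17 ATP synthase genes and 3 of 15 inner membrane translocase genes. Such genes serve nearly every cell, so genes with no row are only named as such and were not analysed here, apart from promoter counts given below.

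Expression was concentrated in few genes. Of the 14980 genes, 10375 (69.3%) were expressed, 6003 were at 10 FPKM or more, 741 at 100 or more and 38 at 1000 or more. Counts of expressed genes in a list, given below, are to be read beside this 69.3%. The 4 highest genes alone made up 11.7 ± 0.154% of all FPKM, and the 100 highest made up 34.3 ± 0.0626%. Of those 100, 42 encode ribosomal proteins. The 4605 genes under 1 FPKM together held 0.194 ± 0.00782%.

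**Figure D1:**
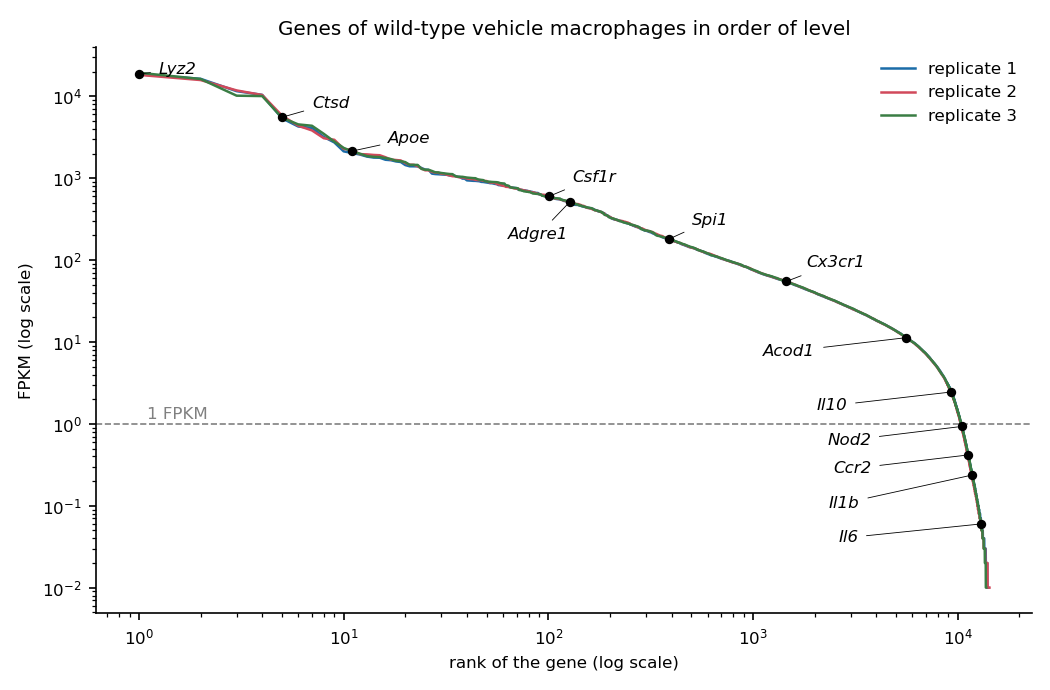
FPKM of every listed gene in each of the 3 wild-type vehicle libraries (lines) against its rank in that library, both on log scales; black dots mark the mean FPKM and the rank by mean of named genes, and the dashed line marks 1 FPKM. The 3 lines lie nearly on top of each other, with Lyz2 at the head, Csf1r at rank 101 and Il6 far below the dashed line.

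The gene at the head of the list was Lyz2, which encodes the lysozyme of macrophages and neutrophils, a secreted and lysosomal enzyme that cuts bacterial cell walls. Its level was 18579, 18282 and 19411 FPKM in the 3 libraries, a mean of 18757 ± 585. Its range did not overlap that of the next gene, Ftl1 (16153 ± 303 FPKM), the ferritin light chain, which was followed by Fth1, the ferritin heavy chain (11151 ± 941 FPKM). Tmsb4x, which encodes an actin-binding thymosin, came next at 10329 ± 127 FPKM. These messages encode an enzyme against bacterial walls, the store of iron and a regulator of the actin skeleton.

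The 25 highest nuclear genes outside the ribosomal proteins included 4 lysosomal proteins and the 3 C1q chains. Lysosomal proteins were Ctsd (cathepsin D, 5555 ± 222 FPKM), Ctsb (cathepsin B, 4163 ± 357), Psap (the precursor of the saposins, 2231 ± 109) and Ctss (cathepsin S, 1852 ± 95.9). Gpnmb, a transmembrane glycoprotein of lysosome-rich macrophages, stood ninth at 2828 ± 109 FPKM, and Apoe, the apolipoprotein that carries cholesterol out of cells, stood at 2145 ± 128. The 3 chains of complement C1q were all among these 25: C1qc at 1478 ± 87.9, C1qb at 1462 ± 67.6 and C1qa at 1252 ± 65.3 FPKM. Prdx1, a peroxide-reducing enzyme, was at 1842 ± 74.6 FPKM. The remaining 11 were genes that most cells express strongly, among them Eef1a1 (4341 ± 52.6), Actb (3248 ± 208), B2m (1949 ± 42.8) and Gapdh (1758 ± 85.4).

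The markers of the labelled cell type were high. Csf1r, the M-CSF receptor, was at 578, 643 and 583 FPKM (602 ± 35.8), which placed it 101st of 14980 genes. Adgre1, which encodes the F4/80 antigen, was at 473, 539 and 525 FPKM (512 ± 34.9), at rank 127. The ranges of the 3 genes just above and just below each of them overlapped its own, so the order within these places is not resolved. By read number, without division by length, Csf1r would stand 24th and Adgre1 35th. All 13 genes of the macrophage list were expressed, from Lyz2 and Cd68 (827 ± 43.8 FPKM, a lysosomal membrane protein) through Mpeg1 (614 ± 14.1, a pore-forming protein) and Itgam (240 ± 11.8, the CD11b chain) to Cd14 (47.2 ± 2.98) and Mertk (35.9 ± 2.37, a receptor for dying cells). The median of the list was 258 FPKM, beside 5.88 FPKM for all listed genes.

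Lyz1, the sister gene of Lyz2 whose sequence is close to it, was at 537, 507 and 500 FPKM. Lyz2 was 36.5 ± 2.12 times higher. The deposited counts of both genes were not whole in replicate 2 (380436.92 and 13151.08), which shows that reads were shared between transcripts there, so the split between these paralogs is uncertain.

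Genes of the monocytes from which macrophages arise were divided: 7 of 11 were expressed (63.6%, beside 69.3% of all 14980 genes). Ly6c2, the Ly6C antigen of inflammatory monocytes, was at 0.28, 0.97 and 1.46 FPKM, and Ccr2, the receptor that draws those monocytes into tissue, at 0.48, 0.52 and 0.25 FPKM. Ace was at a mean of 0.01 FPKM, with no more than 1 count in any library. Cx3cr1, the fractalkine receptor, was at 52.6, 57.5 and 54.3 FPKM, above Ccr2 in every library. Fn1, which encodes fibronectin, led the monocyte list at 105 ± 7.16 FPKM. Plac8 (12.2 ± 0.455), Treml4 (10.8 ± 0.867), Spn (8.26 ± 0.644), Vcan (2.13 ± 0.107) and Nr4a1 (1.38 ± 0.176 FPKM) were also expressed.

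**Figure D2:**
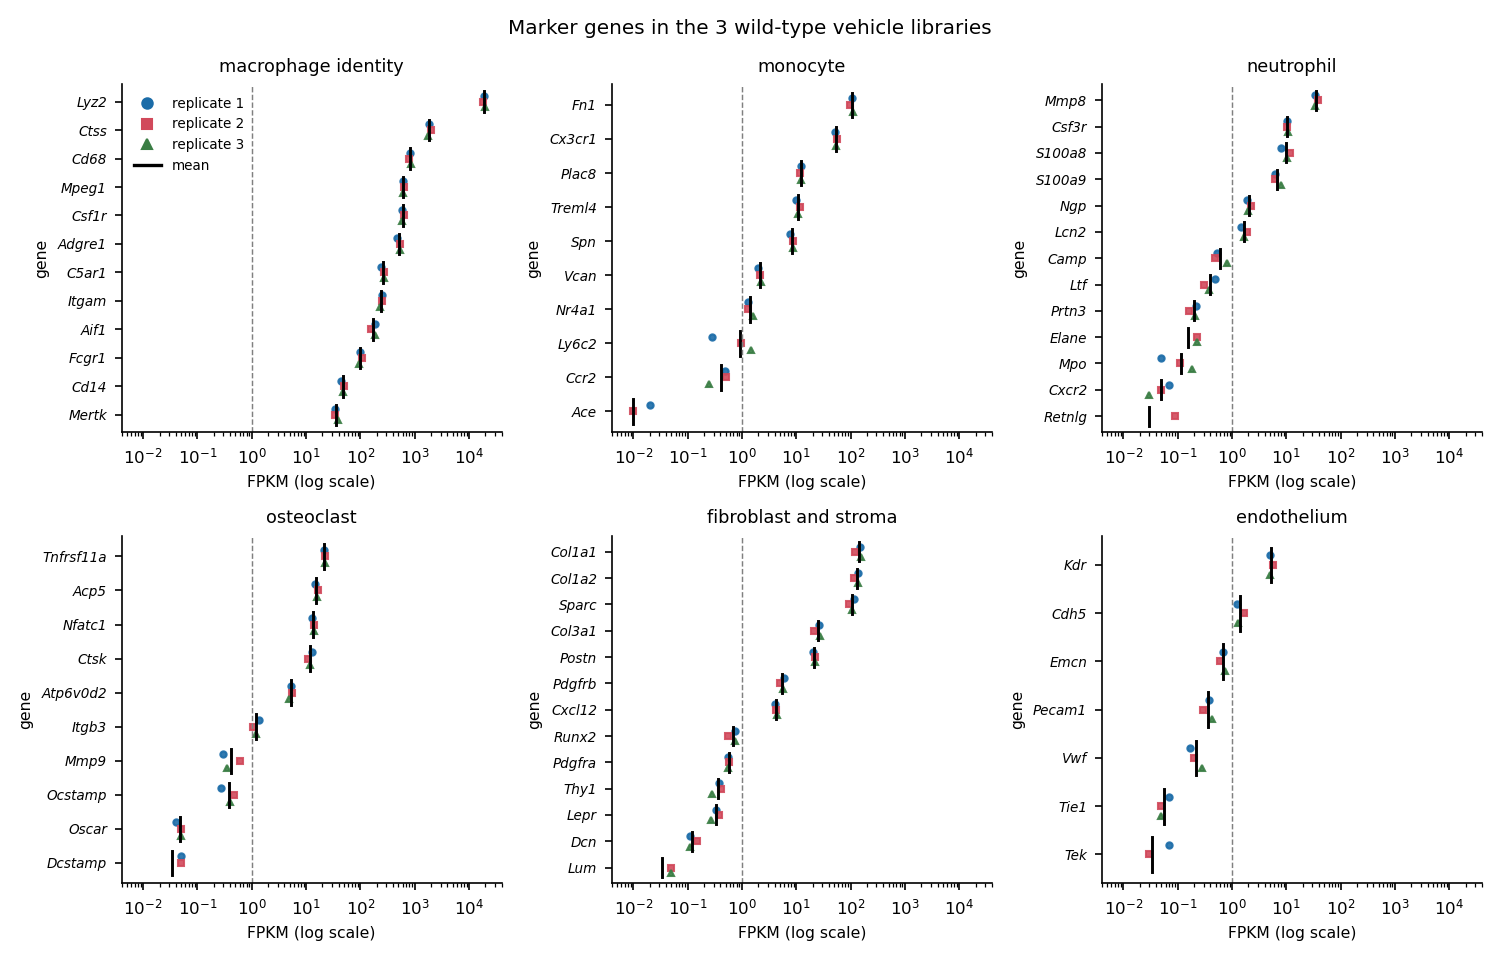
FPKM (log scale) of marker genes in the 3 wild-type vehicle libraries: symbols are single libraries, black bars the mean, the dashed line 1 FPKM, and a library without a row for a gene has no symbol. Every macrophage gene drawn lies above 1 FPKM, while the lists of other cells run from a few genes over 10 FPKM down to the detection limit.

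Among transcription factors of myeloid cells, 33 of 38 were expressed (86.8%, beside 69.3% of all 14980 genes), and Spi1 led them. Spi1 was at 185, 180 and 176 FPKM (180 ± 4.70). Irf5, a factor of the inflammatory response, followed at 127 ± 4.63 FPKM, then Id3 (122 ± 11.3) and Maf (111 ± 9.45), whose ranges overlapped their neighbours'.

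Cebpa was at 48.3 ± 1.33 FPKM and Cebpb at 19.5 ± 1.26, with Cebpb lower in 3 of 3 libraries. Irf8, needed for monocytes and for some dendritic cells, was at 45.5 ± 2.79 FPKM. Of the osteoclast and lysosome regulators of the MiT family, Tfec was at 21.9 ± 0.388, Mitf at 11.0 ± 0.192 and Tfeb at 7.08 ± 0.170 FPKM. Under 1 FPKM were Gfi1 (0.0333 ± 0.0351) and Cebpe (0.353 ± 0.0404) of the granulocyte line, and Myb (0.0733 ± 0.0321) and Gata2 (0.157 ± 0.0896) of progenitors and mast cells. Irf4 was also under 1 FPKM, at 0.343 ± 0.101.

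Because PU.1 binds DNA elements with a purine-rich core often written GAGGAA, the letters before the start of the macrophage genes are shown for members of the macrophage list. RefSeq promoters of build GRCm38.p6 were matched by symbol for 9 of these 13 genes (build and coordinates are those of that table, not of the deposited files, which name GRCm39). GAGGAA on either strand was found in the 250 bases before the start of 5 of the 9. The 3 with it in the last 150 bases, and Lyz2 as the highest gene, are printed 5′ to 3′ on the gene's strand, with capitals marking GAGGAA or its reverse complement TTCCTC.
Itgam (chr7:128062490-128062639, + strand): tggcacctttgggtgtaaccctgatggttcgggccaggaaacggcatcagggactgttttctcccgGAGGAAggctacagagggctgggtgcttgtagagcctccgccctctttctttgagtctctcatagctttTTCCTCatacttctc
Fcgr1 (chr3:96293970-96294119, - strand): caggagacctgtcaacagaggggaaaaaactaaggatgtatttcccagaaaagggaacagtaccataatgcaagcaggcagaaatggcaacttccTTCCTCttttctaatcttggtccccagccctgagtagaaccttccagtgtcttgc
Aif1 (chr17:35176053-35176202, - strand): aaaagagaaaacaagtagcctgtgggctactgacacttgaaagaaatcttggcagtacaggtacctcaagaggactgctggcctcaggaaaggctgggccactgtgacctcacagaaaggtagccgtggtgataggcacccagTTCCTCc
Lyz2 (chr10:117282273-117282422, - strand): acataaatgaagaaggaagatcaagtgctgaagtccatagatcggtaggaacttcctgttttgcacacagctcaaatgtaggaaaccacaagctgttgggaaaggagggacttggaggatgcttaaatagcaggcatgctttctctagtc

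Itgam has these letters at 84 and again at 15 bases before the start, Fcgr1 at 55 and Aif1 at 7, while the Lyz2 stretch has none in this exact form. The letters are common in any promoter: they were in 23.3% of all 32851 promoters of the same length and in 23.9% of those of genes at 100 FPKM or more. The share of another short element varied more along the order of levels. GGGCGG, the GC box bound by Sp1, was searched on both strands. Its share was 40.4% for genes under 1 FPKM, 55.5% from 1 to 10, 60.9% from 10 to 100 and 55.2% at 100 or more. It was in 15.5% of the 17826 promoters of genes without a row, which have no level and no place in this order. TATAAA on either strand was in 10.7%, 6.4%, 5.67% and 9.39% of the same classes of level, and in 16.5% for genes without a row. These shares are counts of letters and were looked for after the levels were known.

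Markers of specialised tissue macrophages appeared in part. Marco, a scavenger receptor of marginal zone and alveolar macrophages, was at 404, 342 and 397 FPKM and made up 87.1% of the summed Kupffer cell list. Vsig4, a complement receptor, was at 38.1 ± 1.4 FPKM and Cd5l at 9.21 ± 1.22, whereas Clec4f, the lectin that defines Kupffer cells, was at 0.0167 ± 0.0289 and Timd4 had no row. Of microglial genes, Olfml3 (32.5 ± 2.18), Tmem119 (12.3 ± 1.21) and P2ry12 (11.2 ± 0.932 FPKM) were expressed, while Sall1 had no row. Of 5 peritoneal macrophage genes with a row, 1 was expressed, Icam2 at 11.7 ± 1.33 FPKM. Gata6, which sets the identity of those cells, was at 0.00667 ± 0.0115. Of 5 red pulp macrophage genes, 4 were expressed: Hmox1 (684 ± 47.9), Slc40a1 (154 ± 14.7), Treml4 (10.8 ± 0.867) and Vcam1 (1.99 ± 0.321). Spic, the heme-responsive factor of red pulp macrophages, was at 0.543 ± 0.361. Of 4 alveolar macrophage genes with a row, 3 were expressed: Pparg (7.85 ± 0.355), Fabp4 (7.56 ± 0.598) and Chil3 (1.4 ± 0.232). Siglecf, a surface marker of alveolar macrophages, was at 0.167 ± 0.0416, and Car4, Fabp1 and Krt79 had no row.

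Osteoclasts arise from the same precursors when RANK ligand is added to M-CSF. Their receptor gene Tnfrsf11a (RANK) was at 21.8 ± 0.611 FPKM, and Acp5 (tartrate-resistant acid phosphatase), Nfatc1 and Ctsk (cathepsin K) were at 15.5 ± 0.883, 13.6 ± 0.817 and 11.8 ± 1.05. Atp6v0d2, a proton pump subunit involved in osteoclast fusion, was at 5.25 ± 0.350, and Itgb3, an integrin chain of mature osteoclasts, at 1.19 ± 0.145. The other 4 genes with a row were under 1 FPKM: Dcstamp was at 0.0333 ± 0.0289, Ocstamp at 0.383 ± 0.106, Oscar at 0.0467 ± 0.00577 and Mmp9 at 0.417 ± 0.161 FPKM. Calcr, the calcitonin receptor, had no row.

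Markers of other marrow cells were mostly under 1 FPKM, with exceptions among neutrophil and stromal genes. In bulk RNA a few cells with much of a transcript and many cells with little of it cannot be told apart. Of 13 neutrophil genes with a row, 6 were expressed, and the whole list summed to 67.3 ± 4.28 FPKM, of which Mmp8 (33.6, 37.5 and 34.1 FPKM) made up 52.1%. S100a8 and S100a9 were at 9.95 ± 1.85 and 6.70 ± 1.06, and the granule genes Ngp and Lcn2 at 2.04 ± 0.189 and 1.68 ± 0.235. The granule genes Camp and Ltf were at 0.603 ± 0.172 and 0.390 ± 0.0954, and Mpo, Elane and Prtn3 were at 0.113 ± 0.0651, 0.153 ± 0.133 and 0.197 ± 0.0321, Retnlg was at 0.0300 ± 0.0520, and Ly6g had no row.

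Fibroblast and stromal genes stood higher. Col1a1, a chain of type I collagen, was at 152, 119 and 159 FPKM (143 ± 21.4, rank 499), with replicate 2 the lowest. Col1a2 was at 139, 115 and 139 FPKM and Sparc, a matrix glycoprotein, at 115, 94.7 and 107, both again lowest in replicate 2. The list of 13 with a row summed to 438 ± 47.6 FPKM, 465, 383 and 466 in replicates 1, 2 and 3. Of these 13 genes 7 were expressed, Col3a1 (24.9 ± 3.06), Postn (21.6 ± 0.951), Pdgfrb (5.57 ± 0.429) and Cxcl12 (4.21 ± 0.173) among them. Others were under 1 FPKM: Dcn, decorin, was at 0.123 ± 0.0231, Lum at 0.0333 ± 0.0289 and Pdgfra at 0.570 ± 0.0173 FPKM. Whether these transcripts came from stromal cells in the dish was not tested.

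Genes of lymphoid, erythroid and other lineages were mostly close to 0. Of 8 B cell genes only Cd79b (1.28 ± 0.380) and Ebf1 (0.733 ± 0.0702) had rows, and of 5 T cell genes Cd4 (1.4 ± 0.394), Cd8a (0.223 ± 0.0929) and Lck (0.120 ± 0.0819). The summed NK list was 0.0400 ± 0.0529 FPKM, the erythroid list 0.147 ± 0.0551 and the endothelial list 7.96 ± 0.527, of which Kdr, a VEGF receptor, made up 65.9%. Of 4 dendritic cell genes with a row, 1 was expressed: Batf3, at 4.99, 3.91 and 3.73 FPKM, made up 95.9% of the list sum. Zbtb46, which marks conventional dendritic cells, was at 0.127 ± 0.0462, with Xcr1 and Clec9a at 0.0400 ± 0.0200 and 0.0133 ± 0.0231. Mcpt8, a basophil protease, was at 1.2 ± 0.151 FPKM. All 4 adipocyte genes had no row.

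A pair of genes used as markers of other cells stood high without the rest of their list. Pf4, the platelet factor that is also a chemokine, was at 522, 554 and 568 FPKM, rank 115, while the megakaryocyte genes Ppbp, Gp1ba and Itga2b were at 0.623 ± 0.211, 0.317 ± 0.0493 and 0.10 ± 0.0361. Ly6a, the Sca-1 antigen of stem cells, was at 74.1, 65.2 and 66.1 FPKM, with Cd34, Meis1, Hoxa9 and Mecom between 0.0867 and 0.477 and Kit without a row.

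Among receptors for growth factors Csf1r stood far above the rest. Csf1r was 8.07 ± 0.545 times the level of Csf2ra (74.6 ± 2.15 FPKM) and 15.6 ± 0.437 times that of Csf2rb (38.6 ± 2.11), the chains of the GM-CSF receptor. Reads of Csf2ra, Csf2rb and its near copy Csf2rb2 (20.2 ± 1.12) were shared with other transcripts. The semaphorin and VEGF co-receptors Nrp1 and Nrp2 came next after Csf1r, at 124 ± 0.529 and 123 ± 5.08 FPKM with overlapping ranges. Csf3r, the receptor of the granulocyte factor, was at 10.3 ± 0.320, the insulin receptor Insr at 5.00 ± 0.140, and Flt3, the receptor of dendritic progenitors, had no row. Csf1, which encodes M-CSF itself, was at 23.1, 23.7 and 23.5 FPKM.

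Of cytokine receptors with a row, 18 of 21 were at 1 FPKM or more (85.7%, beside 69.3% of all 14980 genes). Il10rb (131 ± 3.00) and Tnfrsf1a, the main TNF receptor (105 ± 2.66), led them, and both chains of the interferon gamma receptor stood close together, Ifngr2 at 62.8 ± 4.09 and Ifngr1 at 59.8 ± 2.96. Il4ra was at 51.1 ± 2.12 and its partner Il13ra1 at 11.7 ± 1.03. The lowest were Il1r1 (0.373 ± 0.0929), Il27ra (0.120 ± 0.0361) and Ifnlr1, the specific chain of the type III interferon receptor (0.00667 ± 0.0115). Il1rap, the partner chain of Il1r1, was at 4.73 ± 0.231, and Il10rb also serves as the partner of Ifnlr1, so single chains of both receptors were under 1 FPKM while their partners were expressed.

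Toll-like receptors were led by one that reads bacterial ribosomal RNA. Tlr13 was at 149, 159 and 158 FPKM (155 ± 5.75), 74.4 ± 4.24 times the level of Tlr9, the receptor of unmethylated DNA (2.09 ± 0.191). Unc93b1, which escorts the endosomal receptors, was the highest of the list at 218 ± 8.02. The RNA sensors Tlr8 and Tlr7 stood at 49.5 ± 1.66 and 44.1 ± 0.896. Of the surface receptors, Tlr2, for lipopeptides, was at 55.0 ± 2.59 and Tlr4, for lipopolysaccharide, at 21.6 ± 0.609, so that Tlr2 was 2.55 ± 0.179 times higher. The Tlr4 partners Cd14 and Ly96 (MD-2) were at 47.2 ± 2.98 and 20.3 ± 1.57. The flagellin receptor Tlr5 was at 1.6 ± 0.143, Tlr12 at 0.0400 ± 0.0400, and Tlr11 had no row.

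Sensors of the cytosol were lower, with 11 of 12 expressed (91.7%, beside 69.3% of all 14980 genes) and none at 100 FPKM. The highest were Nlrp3 (25 ± 0.883), Zbp1 (24.0 ± 1.64), Ddx58, which encodes RIG-I (23.4 ± 0.407), and Sting1 (20.6 ± 1.62). Nod2, a sensor of bacterial wall fragments, was at 1.00, 0.89 and 0.90 FPKM, at the edge of the threshold. Naip2 and Naip5, at 18.6 ± 1.24 and 7.33 ± 0.416, belong to a family of close copies that shared reads.

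**Figure D3:**
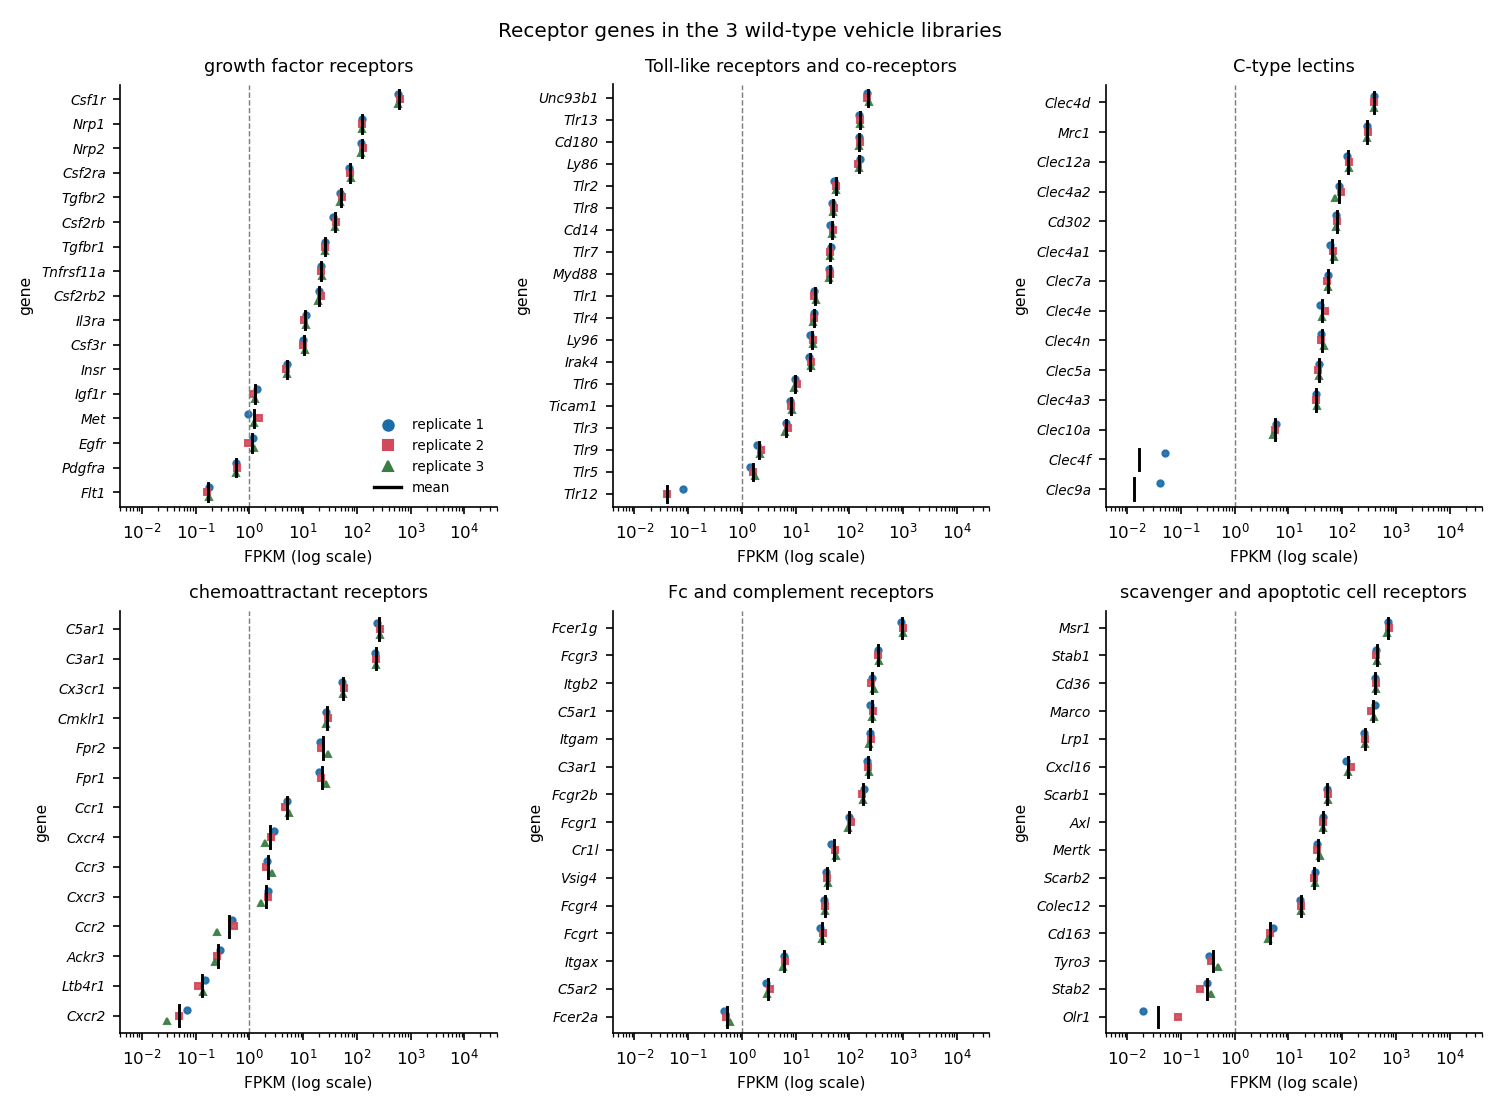
FPKM (log scale) of 6 receptor families in the 3 wild-type vehicle libraries: symbols are single libraries, black bars the mean, the dashed line 1 FPKM, and a library without a row for a gene has no symbol. Csf1r, Unc93b1, Clec4d, C5ar1, Fcer1g and Msr1 head their families, and each family has members under 1 FPKM.

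C-type lectins, which bind sugars of fungi and of damaged cells, were led by Clec4d at 388, 384 and 388 FPKM. Mrc1, the mannose receptor, was at 296, 298 and 288 FPKM, followed by Clec12a, an inhibitory receptor for uric acid crystals, at 130 ± 7.10. The fungal receptors Clec7a (Dectin-1, 53.9 ± 1.44), Clec4e (Mincle, 42.5 ± 4.39) and Clec4n (Dectin-2, 42.0 ± 3.20) were within a narrow band. Clec10a was at 5.57 ± 0.429 and Cd209a had no row.

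Receptors for antibody and complement were among the strongest families, 14 of 15 expressed and 8 at 100 FPKM or more. Their signalling chain Fcer1g was at 968 ± 39.6 FPKM, and the low-affinity receptors Fcgr3 and Fcgr2b, one activating and one inhibitory, were at 345 ± 11.2 and 177 ± 5.18. The high-affinity receptor Fcgr1 was at 100 ± 5.44, and Fcgr3 exceeded it 3.45 ± 0.30 times. Itgam and its partner Itgb2, which form complement receptor 3, were at 240 ± 11.8 and 266 ± 14.1. Itgax, the CD11c chain that is high on dendritic cells, was at 6.05 ± 0.186, so that Itgam was 39.7 ± 0.884 times higher.

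Scavenger receptors take up modified lipoproteins and debris. Msr1 was at 714, 759 and 685 FPKM, Stab1 at 436 ± 11.5, Cd36 at 417 ± 10.6, Marco at 381 ± 34.3 and Lrp1 at 265 ± 9.93. Of the TAM kinases that recognise dying cells through bridging proteins, Axl (44.2 ± 0.948) and Mertk (35.9 ± 2.37) were expressed and Tyro3 was at 0.403 ± 0.0850. Cd163, the hemoglobin scavenger, was at 4.55 ± 0.496, and Stab2 and Olr1 were at 0.30 ± 0.0700 and 0.0367 ± 0.0473.

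Chemoattractant receptors for complement fragments stood above those for chemokines. C5ar1 and C3ar1 were at 258 ± 18.5 and 224 ± 7.35 FPKM. Of the chemokine receptors Cx3cr1 was at 54.8 ± 2.51 and Ccr1 at 5.07 ± 0.420. The formyl peptide receptors Fpr2 and Fpr1, at 24.0 ± 5.00 and 22.8 ± 3.60, were both highest in replicate 3; Fpr2 was at 20.5, 21.7 and 29.7 FPKM. The lowest were Ccr2, Ackr3 (0.257 ± 0.0306), Ltb4r1 (0.133 ± 0.0208) and Cxcr2 (0.050 ± 0.0200), and Ccr7, the receptor for homing to lymph nodes, had no row.

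Of the receptors that pair activation with inhibition, all 14 were expressed, beside 69.3% of all 14980 genes. Tyrobp (DAP12), the adaptor of the TREM family, was at 1111 ± 27.9 FPKM, the inhibitory Lilrb4a at 599 ± 25 and Sirpa, which reads the CD47 signal on healthy cells, at 484 ± 31.1. Trem2, a lipid-sensing receptor, was at 325, 335 and 335 FPKM and so 54.3 ± 3.57 times the level of Trem1 (6.13 ± 0.488), which amplifies inflammation. Among receptors of nucleotides and lipids, P2ry6 led at 98.3 ± 4.28, followed by Gpr84 (62.8 ± 4.56), the receptor of medium-chain fatty acids, and P2rx4 (53.9 ± 1.3). The adenosine receptors Adora2b, Adora3 and Adora2a were at 2.44 ± 0.257, 0.773 ± 0.0379 and 0.380 ± 0.101.

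Nuclear receptors were modest, none at 100 FPKM. Rxra, the common partner, was at 46.4 ± 0.983. Of the liver X receptors, Nr1h2 (LXR beta, 32.0 ± 1.5) exceeded Nr1h3 (LXR alpha) in 3 of 3 libraries. Nr1h3 was at 6.33, 7.10 and 10.3 FPKM, with replicate 3 apart and counts that were not whole. Pparg was at 7.85 ± 0.355, the glucocorticoid receptor Nr3c1 at 24.4 ± 1.1, and Ahr and Ppara were at 0.737 ± 0.160 and 0.0133 ± 0.0231.

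Several steps of glycolysis had 1 dominant isoenzyme. Of 26 genes of glucose uptake and glycolysis with a row, 25 were expressed and 10 were at 100 FPKM or more. Gapdh and Pkm, at 1758 ± 85.4 and 1104 ± 45.6, were highest, and Aldoa (623 ± 7.4) was 64.4 ± 1.84 times higher than Aldoc. Eno1 (498 ± 15.5) exceeded Eno3 24.2 ± 2.10 times. Ldha was at 312, 250 and 322 FPKM, 30.5 ± 4.45 times the level of Ldhb. Of the hexokinases, Hk3, the form of blood cells, was at 168, 166 and 177 FPKM, 5.40 ± 0.154 times Hk2 and 5.98 ± 0.395 times Hk1. Pklr, the pyruvate kinase of liver and red cells, had no row.

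Glucose uptake and lactate export genes stood lower. The glucose transporter Slc2a1 was at 20.3 ± 0.399 FPKM, 5.94 ± 0.278 times Slc2a3, and the lactate exporters Slc16a1 and Slc16a3 were at 8.32 ± 0.495 and 8.19 ± 0.398, not separated by their ranges. The phosphofructokinase chains Pfkp, Pfkl and Pfkm were at 22.3 ± 1.51, 16.8 ± 1.13 and 5.80 ± 0.244. The pentose phosphate pathway, which makes NADPH, had a median of 168 FPKM over its 7 genes, led by Taldo1 (531 ± 6.07) and Pgd (427 ± 12.7), with its entry enzyme G6pdx at 186 ± 6.89.

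**Figure D4:**
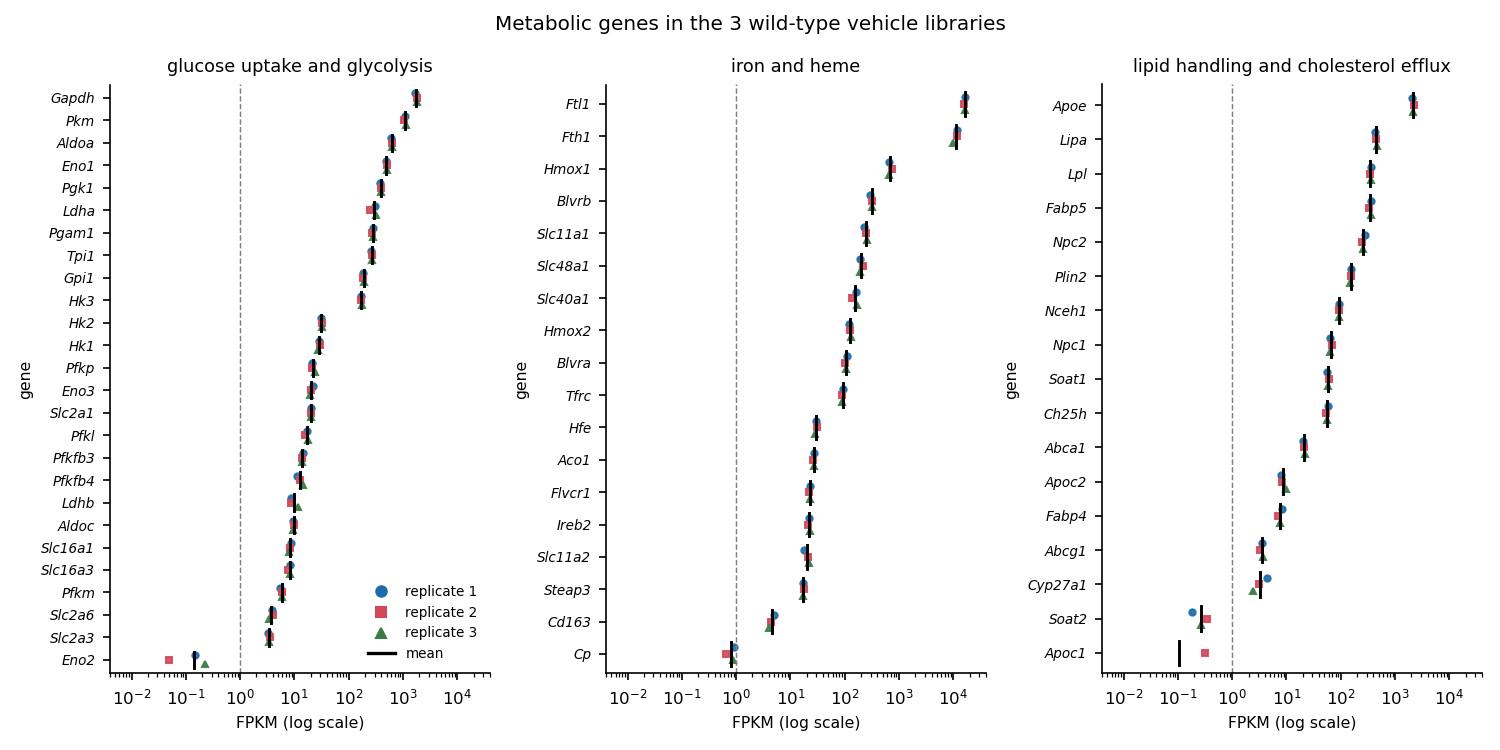
FPKM (log scale) of genes of glycolysis, of iron and heme, and of lipid handling in the 3 wild-type vehicle libraries: symbols are single libraries, black bars the mean, the dashed line 1 FPKM, and a library without a row for a gene has no symbol. Ferritin chains and Apoe stand far above the other genes of their panels, and Hk3 lies apart from Hk2 and Hk1.

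The tricarboxylic acid cycle can be described only in part, since 8 of its 19 genes had no row, Sdha and Mdh2 among them. The 11 that did were all expressed, Cs (citrate synthase) at 110, 108 and 116 FPKM, Sdhc at 86.3 ± 2.43, Ogdh at 73.4 ± 1.01 and Idh2 at 10.8 ± 0.271. Acly, which turns citrate into acetyl-CoA for lipid synthesis, was at 59.1 ± 1.90. Acod1 (Irg1), the enzyme that makes itaconate and the gene that this study disrupts in other cells, was at 11.3, 12.3 and 10.3 FPKM (11.3 ± 1.02), rank 5608. Auh and Clybl, enzymes of itaconate breakdown, were at 6.76 ± 0.611 and 5.27 ± 1.16.

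Lipid handling genes were led by Apoe. After Apoe came Lipa, the lysosomal acid lipase (447 ± 24.0), Lpl, lipoprotein lipase (353 ± 5.56), Fabp5 (353 ± 14.5), and Npc2, which moves cholesterol out of lysosomes (258 ± 18.6). The cholesterol exporters Abca1 and Abcg1 were at 21.3 ± 0.976 and 3.5 ± 0.185. All 10 cholesterol synthesis genes with a row lay between 14 and 58.1 FPKM. Scd2, a desaturase, was at 27.2 ± 1.12, 13.2 ± 1.04 times Scd1, and of fatty acid oxidation genes only 4 of 12 had a row, with Cpt1a at 30.1 ± 0.772.

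Of the metabolic lists, that of iron and heme had the largest summed level, 29365 ± 823 FPKM, of which the ferritin light chain made up 55%. Hmox1, which opens the heme ring, was at 661, 739 and 651 FPKM (684 ± 47.9, rank 80), higher than its constitutive relative Hmox2 (125 ± 6.15). The next enzyme, biliverdin reductase B (Blvrb), was at 314 ± 17.7. The transporters Slc11a1 (NRAMP1, which pumps metal out of phagosomes), Slc48a1 (heme out of lysosomes) and Slc40a1 (ferroportin, iron out of the cell) were at 246 ± 15.8, 199 ± 15.2 and 154 ± 14.7, and the transferrin receptor Tfrc at 91.4 ± 2.11. Cp, ceruloplasmin, was at 0.820 ± 0.148 and Hamp, hepcidin, had no row.

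The enzymes that define opposing arginine programmes were both near 0. Nos2, inducible nitric oxide synthase, was at 0.00, 0.01 and 0.02 FPKM, no more than 1 count in any library. Arg1, arginase 1, was at 0.45, 0.62 and 0.33 FPKM from 10, 19 and 5 counts. All 6 tryptophan enzymes with a row were under 1 FPKM, the highest being Il4i1 at 0.283 ± 0.340. Odc1, which makes polyamines, was at 70.9 ± 3.34 and Sat1, which acetylates them, at 142 ± 11.0.

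Antioxidant genes were strong, 8 of 15 at 100 FPKM or more, with Gpx1 (349 ± 11.3), Txn1 (306 ± 11.5), Sod1 (295 ± 18.8) and Cat (213 ± 8.35) after Prdx1. Nqo1 was at 14.6 ± 0.705 and the cystine transporter gene Slc7a11 at 2.47 ± 0.101, with counts shared with other transcripts. For eicosanoids, Alox5ap, the helper of 5-lipoxygenase, was at 409 ± 9.87 while Alox5 itself was at 5.32 ± 0.234. Ptgs1, the constitutive cyclooxygenase, was 3.86 ± 0.458 times Ptgs2 (3.40 ± 0.497), and the synthases Hpgds and Tbxas1 were at 68.0 ± 1.95 and 64.6 ± 1.49.

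Of the lysosomal genes, 19 of 23 were at 100 FPKM or more, with a median of 465. Beside the cathepsins already named, Grn (progranulin, 1049 ± 47.8), Lamp1 (975 ± 36.2), the proton pump subunit Atp6v0c (894 ± 58.8), Lgmn (legumain, 892 ± 26.7) and Ctsl (876 ± 69.3) followed with overlapping ranges from Lamp1 on. Ctsg, the granule protease of neutrophils, was at 0.137 ± 0.158 and Ctse at 2.63 ± 0.182. The NADPH oxidase, which makes superoxide in phagosomes, had subunits at high levels: Cyba 535 ± 25, Cybb 296 ± 14.5, Ncf1 143 ± 2.54, Ncf4 123 ± 5.68 and Rac2 97.4 ± 7.56 FPKM. The oxidases of other tissues, Nox1 and Nox4, were at 0.523 ± 0.342 and 0.297 ± 0.0896.

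Cytokine genes were mostly low and were led by growth factors. Tgfb1 was at 135, 148 and 150 FPKM, and Igf1 at 56.5, 57.1 and 57.3. Tnf was expressed, at 19.1, 19.6 and 20.4 FPKM, and Il18 stood beside it at 20.2 ± 1.58. Il1b was at 0.20, 0.29 and 0.22 FPKM from 4, 8 and 3 counts, and its natural antagonist Il1rn was at 6.94 ± 0.612. Il10 was at 2.88, 2.15 and 2.32 FPKM. Il6 was at 0.0600 ± 0.0520 and Il12b at 0.393 ± 0.119, and Il12a, Il23a, Ifnb1, Csf2 and Csf3 had no row.

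Several CC chemokines were far higher. Ccl2, which attracts monocytes, was at 1104, 972 and 1135 FPKM (1070 ± 86.5), 35th of all genes. Ccl7 (527 ± 23.3), Ccl6 (331 ± 11.1) and Ccl9 (196 ± 5.96) followed. Ccl3 and Ccl4 were at 75.5 ± 18.0 and 81.8 ± 9.55; Ccl3 was at 93.4, 57.4 and 75.9 FPKM, with replicate 1 the highest, and the ranges of the pair overlapped. The alternatively induced Ccl24, Ccl17 and Ccl22 were at 0.287 ± 0.0929, 0.160 ± 0.165 and 0.01 ± 0.0173. Of CXC chemokines, Pf4 and Cxcl16 (131 ± 13.4) were high, Cxcl10 was at 4.59 ± 0.337, and the neutrophil attractants Cxcl1, Cxcl3 and Cxcl2 were at 0.243 ± 0.116, 0.373 ± 0.203 and 1.1 ± 0.841, Cxcl2 resting on replicate 1 (2.07 FPKM against 0.65 and 0.58).

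**Figure D5:**
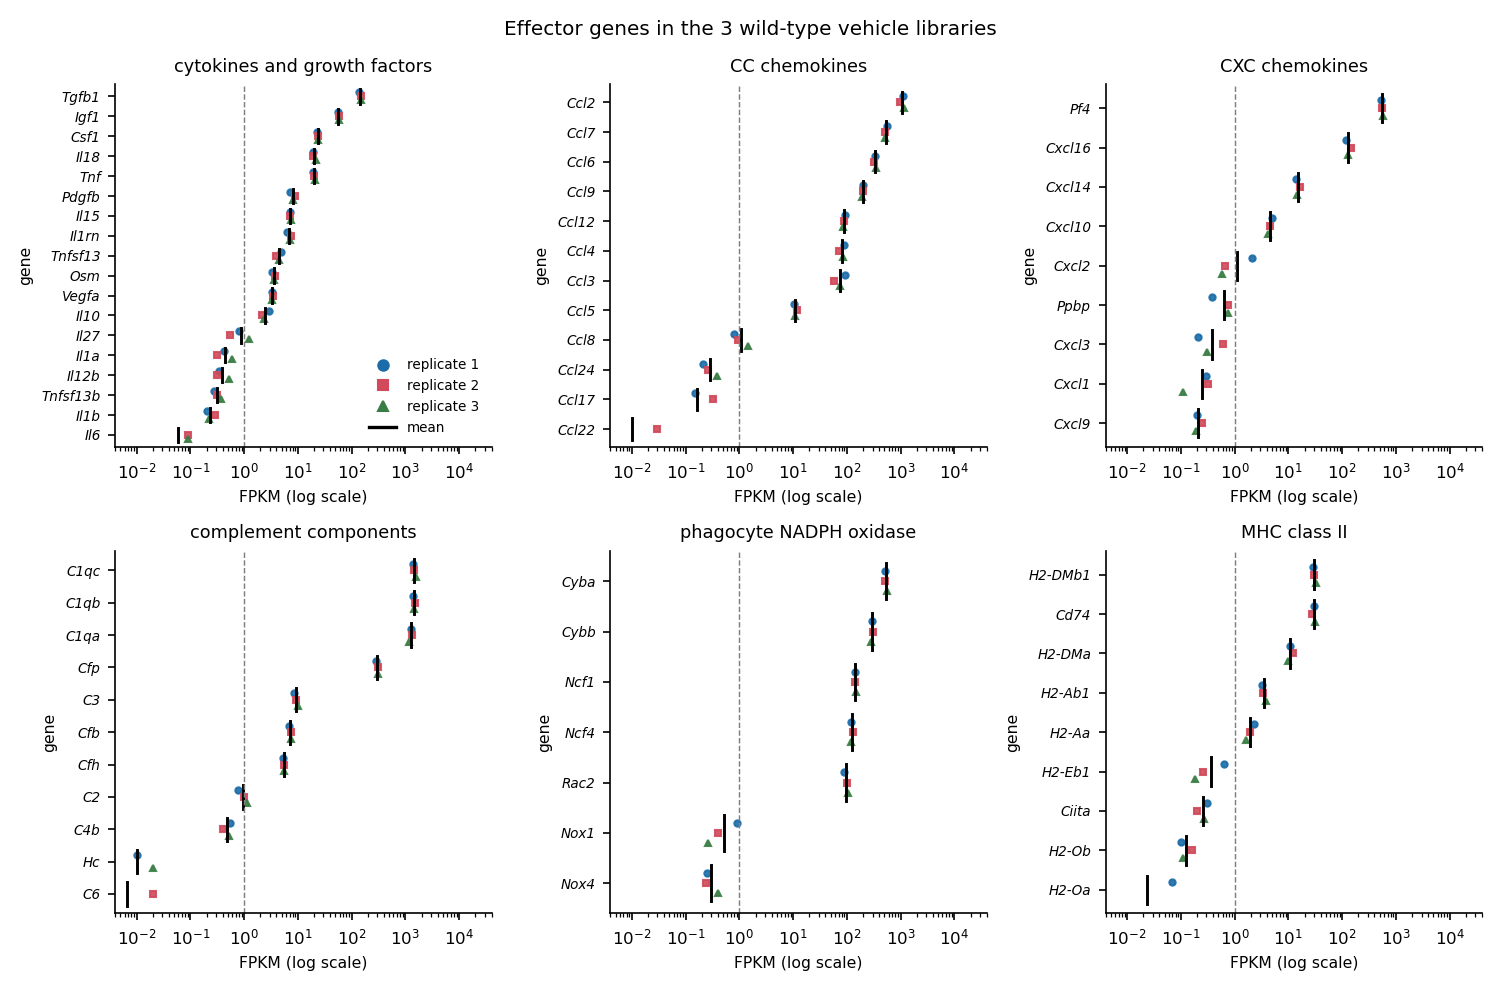
FPKM (log scale) of effector genes in the 3 wild-type vehicle libraries: symbols are single libraries, black bars the mean, the dashed line 1 FPKM, and a library without a row for a gene has no symbol. The means of the C1q chains, Ccl2, Pf4 and the oxidase subunits drawn from Cyba to Rac2 lie at or above 97.4 FPKM, while Il1b, Il6, Ccl22 and the H2-Eb1 and Ciita genes of MHC class II lie under 1.

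The C1q chains and Cfp (properdin, 300 ± 13.3) were high, C3 was at 9.22 ± 0.785 and Cfb at 7.23 ± 0.357, and C2, C4b, Hc (which encodes C5) and C6 were at 0.957 ± 0.179, 0.487 ± 0.0757, 0.01 ± 0.01 and 0.00667 ± 0.0115. C1qa was lower than C1qb in 3 of 3 libraries, and C1qb and C1qc were not separated (ratio 0.991 ± 0.0616). Of the matrix proteases, Adam8 (808 ± 28.6), the urokinase gene Plau (411 ± 21.8) and the inhibitors Timp1 (108 ± 2.02) and Timp2 (103 ± 2.66) led, and Mmp12, macrophage elastase, was at 65.8 ± 4.62.

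Antigen presentation was weighted to class I. B2m, H2-D1 (996 ± 51.0) and H2-K1 (582 ± 23.1) were high, with shared reads for the H2 genes, and all 9 class I genes were expressed. Of class II genes, Cd74, the invariant chain, was at 29.6, 28.0 and 30.8 FPKM and H2-DMb1 at 30.6 ± 2.45, but the peptide-presenting chains H2-Ab1, H2-Aa and H2-Eb1 were at 3.5 ± 0.323, 1.97 ± 0.348 and 0.360 ± 0.246. Ciita, the master activator of class II, was at 0.260 ± 0.0557. Of the co-stimulatory genes, Cd40 was at 12.8 ± 1.53, Cd80 at 7.25 ± 0.835 and Cd86 at 1.93 ± 0.180, and Pdcd1lg2 (PD-L2) was at 0.0200 ± 0.0346.

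The alternative activation list, induced by IL-4 in macrophages, held 1 strong gene. Mrc1 made up 97.5% of its sum, while Chil3 was at 1.4 ± 0.232, Mgl2 at 0.693 ± 0.211, and Retnla had no row. Genes of the type I interferon response were expressed without added interferon in 16 of 16 cases with a row, beside 69.3% of all 14980 genes. Their median was 35 FPKM, beside 5.88 FPKM for all genes. Ifitm3 (529 ± 46.7), Bst2 (292 ± 17.6) and Irf7 (110 ± 8.93) led, and Usp18, Rsad2, Ifit1 and Mx1 were lowest, from 11.2 ± 0.960 down to 6.12 ± 0.0929. Inflammasome genes were all expressed, with Casp1 at 61.6 ± 1.17, Gsdmd at 27.3 ± 1.76 and Ninj1, which ruptures the membrane of dying cells, at 280 ± 10.9.

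The libraries also carried the messages of dividing cells. All 12 genes of cell division were expressed, led by Pcna (450, 399 and 455 FPKM) and Ccnd1 (286 ± 14.6), the D cyclin that M-CSF induces. The mitotic genes Top2a and Mki67 were at 81.6 ± 1.37 and 67.0 ± 1.75, and Cdk1 was at 27.3 ± 0.982. The share of cells in division cannot be read from these levels.

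Seen by list, 521 of 645 list genes with a row were expressed, beside 10375 of all 14980 genes (69.3%). Of the 64 lists with any row, 39 had a median above that of all 14980 genes. The genes of the effector lists held 17.1 ± 0.207% of all FPKM and those of the metabolic lists 9.71 ± 0.161%. The lineage lists held 5.63 ± 0.0895%, the receptor lists 2.90 ± 0.0488% and the lists of other cells 0.236 ± 0.00958%, with some genes in several lists. Single genes weigh heavily in the effector share: Tmsb4x made up 48.4% of the list of secreted and cytoskeletal proteins, and Lyz2 93.1% of that of antimicrobial proteins. The lists were drawn up by hand around known macrophage genes, so these shares depend on that choice.

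The 3 libraries were close to each other. For the 10316 genes averaging 50 or more expected counts, counts scaled by library total had a median coefficient of variation of 5.30%, beside 4.17% from counting alone, and 81.6% of genes were under 10%. Across genes, log2(FPKM + 1) correlated at r = 0.9977 to 0.9981 between pairs of libraries, a description over 14980 genes that share the same libraries. The chi-square per gene between pairs of libraries was 3.49 to 5.33, where counting noise alone gives about 1, so no pair was within counting noise and none was merged. This does not tell separate cultures from separate preparations of one culture.

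The spread exceeded counting error by 3 times or more in 831 genes, and in 1304 when replicate 3 was left out. Relative to counting it was largest for Fth1, Ctsb and Rps4x, and several very abundant genes followed. Counting error falls as counts rise, so this ratio favours abundant genes and does not by itself mark an unusually large spread. On scaled counts the spreads were 9.20% for Fth1 beside 0.270% from counting, 5.72% for Ctsb beside 0.261%, and 6.09% for Actb beside 0.333%. Among the 10 genes with the largest such ratio, Rps4x was at 902, 621 and 900 FPKM, Ubb (ubiquitin) at 453, 475 and 352, and Col1a1 had a spread of 15.0%. Actg1, Ctsd and Flna varied by 7.55%, 3.82% and 7.46%, where the median over all 10316 genes was 5.30%. Ppp1ccb, at 32.3, 27.6 and 5.64 FPKM, was the most uneven of these 10, and its counts were not whole in the 3 libraries, which marks reads divided among transcripts.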

How the data were processed

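The 3 RNA sequencing libraries of wild-type vehicle macrophages were used, grouped by their labels. The tools named per the submitters' processing notes are RSEM, Bowtie2, StringTie and HISAT2, and the builds are mm39 and GRCm39; versions and roles are not given in the sources used here. The deposited expected counts, per the file headers, are estimated reads or fragments per gene, whole numbers in 90.62 to 91.51% of rows, and were not rounded for levels. The deposited FPKM, per the file headers, are those counts divided by transcript length and library total by the authors. The deposited transcript length, per the file headers, was used to describe genes only.

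Genes were ordered by mean FPKM over 3 libraries. The members and the 65 gene lists (736 symbols, 645 with a row, 2 through a RefSeq synonym) were chosen with earlier results of these data known, so no list supports a claim about itself. Of 14980 file symbols, 14866 matched RefSeq (GRCm38.p6). Named genes are Csf1r, Adgre1, Lyz2, Acod1 and Hmox1; the 25 highest nuclear genes without ribosomal proteins and provisional names; in each list up to 6 of the highest and 4 of the lowest members and those with no row; the 10 genes with the largest spread relative to counting; and the 3 neighbours on each side of the markers. Other list members, ratios of gene pairs and the promoter letters were chosen after their values were seen. List medians use log2(FPKM + 1) in the comparison of settings. The spread measure was tested on simulated data. Tools were Python 3.11.15, pandas 2.3.3, numpy 2.4.6 and matplotlib 3.10.9; TMM factors for 1 alternative came from edgeR 4.0.16 in R 4.3.3, on rounded counts. Alternatives were another threshold, unit, mean, filter or pseudocount, and leaving out each library. Some genes of the lists are not reported here by name or drawn, though the counts include them.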

Additional observations from a re-analysis of the deposited data

How the results depend on the processing

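Without division by transcript length, using CPM from the expected counts, the 100 highest genes held 22.7% of the total in place of 34.3%, and 16 of the 25 highest named genes were among the 25 highest. Among list genes and these 25, the rank moved by more than its SD between libraries for 540 genes, and by no more for 108. The ranks given above are ranks by FPKM, and most of them depend on that unit. Without replicate 1, 2 or 3 in turn, between 752 and 1304 genes exceeded counting error by 3 times or more, in place of 831; 1304 is the count without replicate 3, the library with the fewest counts. The other settings left the number of expressed genes between 9564 (threshold of 2 FPKM) and 11074 (FPKM rescaled to TPM), in place of 10375, and 39 lists above the median of all genes in each setting run. Lists of few expressed genes moved with the threshold: for endothelium 3 genes passed 0.5 FPKM and 1 passed 2 FPKM, in place of 2. Leaving out genes of the mitochondrial genome changed nothing, since none was found by name in the files. No paired analysis was possible because a single group is described and no result comes from a test.

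Levels under about 0.1 FPKM rest on a few counts, so genes there cannot be put in order. Expected counts that are not whole mark genes whose reads were shared, and their levels depend on how the authors' tools divided them.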
